A study of Anthoceros agrestis with 2 samples.

Results

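In the genome of the hornwort Anthoceros agrestis, 792 long blocks carried methylation at CG sites and almost none at CHG or CHH sites (H is any base but G). The blocks were found in the merged methylation report of the Oxford strain. Cytosines with at least 10 reads were used, the level of a cytosine was the share of its reads called methylated, and chromosomes 1 to 6 (AnagrOXF.S1 to AnagrOXF.S6) were divided into 1 kb bins from position 1. A bin was scored when it held 5 or more covered sites in each of the CG and CHG contexts, and it was CG-only when the mean CG level was at least 50% and the mean CHG level below 10%. A block was a run of at least 3 consecutive CG-only bins, so the members were selected on the merged CG and CHG levels. Of 3809 runs of CG-only bins, 792 were blocks and 3017 were short runs of 1 or 2 bins, and the blocks held 3230 of 111934 scored bins, or 2.89%. CG-only bins of any run made up 6.48% of the scored bins.

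The material was 4-wk-old thalli of wild-type Oxford plants, the haploid gametophyte, kept in continuous white light on agar with Gamborg's B5 medium at a strength of 0.5. Methylation was read in DNA of 2 biological replicates with EM-seq (Enzymatic Methyl-seq), in which enzymes shield methylated cytosines and convert unshielded ones, so that reads show C where a cytosine was methylated and T where it was not. Replicate 1 had 323429467 cytosine calls, replicate 2 had 325691541, and the merged report had 648374160, with a median depth of 4, 4 and 9 reads per cytosine. All plants belong to 1 strain and 1 growth condition, so the blocks are compared with other bins of the same genome and not between groups of plants.

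In plants, CG methylation is copied to the new strand after each round of replication by MET1-type enzymes, which read the methylated CG of the old strand. CHG methylation is kept by chromomethylases, which bind the histone mark H3K9 methylation, and it usually accompanies CG methylation in silenced transposable elements (TEs). Sequences with CG methylation alone are best known from gene bodies of flowering plants. A methylated cytosine that loses its amino group becomes thymine, and a CG mutated in this way is left as TG, read as CA on the opposite strand.

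The CG sites of the blocks can be seen in short stretches of the 3 longest blocks. In each, the stretch with the most covered CG sites was taken from the part of the sequence that the trinucleotide entries of the reports resolve without gaps (84.7% to 86.1% of the bases of these blocks). Sequences are of the plus strand of the Oxford assembly, and capitals mark CG sites. A stretch from the unmethylated bin that follows the longest block was chosen afterwards in the same way and is shown for comparison.
15 kb block, chr2:6443718-6443763: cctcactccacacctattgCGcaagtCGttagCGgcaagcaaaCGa
13 kb block, chr2:9036558-9036601: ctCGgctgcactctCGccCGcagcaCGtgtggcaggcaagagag
13 kb block, chr1:29011059-29011096: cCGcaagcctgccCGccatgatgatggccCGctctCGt
unmethylated bin, chr2:6454145-6454195: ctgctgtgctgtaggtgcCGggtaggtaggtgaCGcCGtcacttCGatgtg

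The 4 CG pairs of the first stretch had a mean level of 62.0% over 8 covered sites, on 55 methylated of 88 calls. The second pair stood out within it, with 18.2% on the plus strand and 27.3% on the minus strand, between a pair at 90.9% and 83.3% and a pair at 90.9% on both strands. All 102 calls at the 8 covered CG sites of the second stretch were methylated, while its 8 covered CHG sites averaged 1.14%. The third stretch averaged 88.4% over 7 covered CG sites (80% to 100%) and had no methylated call at 5 covered CHG sites. In the stretch outside the block, 0 of 88 calls at 7 covered CG sites were methylated. The stretches thus show fully methylated pairs and, in the longest block, pairs of intermediate level beside high ones.

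The CG level averaged 72.4% over 94442 covered sites of the block bins in the merged report, and 72.2% ± 1.73 in the replicates (SD, n = 2). The CHG level was 0.208% over 217829 sites (0.210% ± 0.0216, SD, n = 2). Both levels were used by the rule and are given as a description. As a scale for them, methylated bins, with CG of at least 50% and CHG of at least 30%, made up 37.7% of the scored bins and averaged 94.2% in CG and 65.2% in CHG. Unmethylated bins, with both levels below 5%, made up 39.8% and averaged 0.390% in CG and 0.159% in CHG. Bins of short CG-only runs averaged 67.0% in CG. The CG sites of the blocks were therefore less methylated, by 21.8 points, than those of methylated bins.

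Membership rested little on the limits for CHG and more on those for CG. Of the member bins, 3068 (95.0%) had a CHG level below 1%, and only 8 lay between 8% and 10%, the highest at 9.95%. By contrast, 263 member bins had a CG level of 50% to 55%, the lowest just above the limit at 50.02%. Directly outside the blocks, 206 neighbouring bins had CG between 40% and 50% with CHG below 10%, the highest at 49.98%, and 16 had CG of at least 50% with CHG between 10.3% and 14.7%. The 1009 runs of 2 bins had a median CG level of 68.2%, against 70.6% in the 417 blocks of 3 bins. In replicate 1, 3115 of 3225 scored member bins (96.6%) were CG-only, and in replicate 2 it was 3049 of 3229 (94.4%). The reads of both replicates make up the merged report, so this is no independent check. Every bin was called in both replicates for 564 blocks, the level over the whole block was at least 50% in CG in both for 791 blocks, and the CHG level stayed below 10% in both for 792 blocks, the highest being 7.45%.

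CHH methylation, which the rule did not use, was also close to the level of unmethylated DNA. It was 0.116% over 588912 sites in block bins (0.117% ± 0.0143, SD, n = 2), against 1.93% in methylated bins and 0.0992% in unmethylated bins. Block bins were 1.81 points lower than methylated bins (−1.82 ± 0.00817 in the replicates, SD, n = 2). They were 0.0172 points higher than unmethylated bins (0.0159 ± 0.00676, SD, n = 2), a difference larger than the spread between the replicates but small beside either level. With 2 replicates of 1 group, an exact two-sided sign-flip test cannot give a p below 0.5, so no test across plants was made and these differences are set against the replicate SD only. CAA sites, the most methylated CHH trinucleotide of methylated bins, had 0.140% in blocks, against 5.26% in methylated bins and 0.116% in unmethylated bins. Thus the CHH contexts that were methylated elsewhere were near the floor in the blocks.

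Among CHG sites, CCG differed most from unmethylated bins. It averaged 0.283% over 20337 sites in blocks, against 0.514% in short CG-only runs, 0.688% in partial CG bins, 28.9% in methylated bins and 0.101% in unmethylated bins. The difference from unmethylated bins was 0.182 points (0.183 ± 0.00515 in the replicates, SD, n = 2). CAG had 0.208% in blocks and 0.174% in unmethylated bins, and the difference in the replicates, 0.0193 ± 0.0243 points, lay within their spread. CTG had 0.192% in blocks and 0.172% in unmethylated bins, and its difference of 0.00755 ± 0.00634 points in the replicates was slightly above their spread. In CCG the second cytosine belongs to a CG site, which in the blocks was mostly methylated.

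The level of a CG site in the blocks depended on the base that followed it. CGC sites had 78.3%, CGA sites 76.2% and CGG sites 74.9%, whereas CGT sites had 61.5% over 25193 sites (61.3% ± 2.06, SD, n = 2). In methylated bins the same 4 kinds of site spanned only 93.0% to 94.7%, again with CGT lowest. Short runs had 56.2% at CGT sites and 68.9% to 72.1% at the others. The lower level of CGT sites was seen in both replicates, with 62.7% and 59.8% at CGT sites, against 76.0% and 73.6% at CGG sites, the next lowest kind.

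Single CG sites were mostly either high or low. In the block bins, 65.5% of the covered CG sites had a level of at least 80%, 16.8% lay between 20% and 80%, and 17.7% were below 20%, with 13.9% at 0. In the replicates 66.6% ± 2.78 were at 80% or more and 18.4% ± 0.470 below 20% (SD, n = 2). In methylated bins 95.4% of the sites were at 80% or more and 1.43% below 20%. The mean of 72.4% in the blocks is thus made mainly of sites near full methylation, at a median of 90.9%, mixed with a minority of nearly unmethylated sites. At 10 or so reads per site, a level of a single site is coarse, and intermediate values carry a large counting error.

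The cytosines of a CG pair on opposite strands were alike. Over 27976 pairs with at least 10 reads on both strands, the levels of the strands had a Pearson correlation of 0.953, which is a description across sites of the same libraries, and differed by 7.05 points on average. Of 22396 pairs with at least 50% on either strand, 0 had 80% or more on one strand and less than 20% on the other, against 49 of 378934 pairs in methylated bins. The plus and the minus strand averaged 72.8% and 72.7%. Low sites were therefore low on both strands.

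Low pairs were found singly and in short stretches. Of the 27976 pairs, 4831 (17.3%) had a mean level below 20%. Among these covered pairs, 52.5% of the low ones stood alone, while 6.11% lay in stretches of 5 or more. Pairs with fewer reads were not counted, so these values do not cover every CG site of a stretch. The longest stretch held 10 pairs, between positions 2543730 and 2543981 of chromosome 2. Neighbouring pairs resembled each other only when close together, with a correlation of 0.524 at 2 to 10 bp, 0.308 at 11 to 20 bp, 0.132 at 21 to 40 bp and 0.0980 at 41 to 60 bp. It was 0.0842 at 151 to 200 bp, 0.0229 at 201 to 300 bp and −0.00148 at 401 to 500 bp, over 5308 to 26122 pairs of pairs in each class. Pairs within about 100 bp can share reads, and pairs farther apart can share a fragment, since the reads were paired-end. Pairs within a block also share its mean. None of these effects was separated here.

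CG sites were scarce in the blocks. The number of CG dinucleotides relative to the number expected from the C and G content of the bin (observed/expected) had a median of 0.431 in block bins, 0.434 in short CG-only runs, 0.616 in methylated bins and 0.629 in unmethylated bins. This ratio is a property of the assembled sequence, was not used by the rule, and has no replicate error. A ratio below 0.5 was found in 77.6% of the block bins, 74.5% of bins of short CG-only runs and 43.8% of partial CG bins. The share was 27.5% of all scored bins, 25.4% of methylated and 18.0% of unmethylated bins. In counts, a block bin held a median of 23 CG sites per kb and a bin of short CG-only runs 24. Partial CG, methylated and unmethylated bins held 29, 33 and 40.

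CA and TG dinucleotides were plentiful. Their observed/expected ratio was 1.38 in block bins, 1.41 in short CG-only runs, 1.33 in partial CG bins, 1.19 in methylated bins and 1.28 in unmethylated bins, so the ratio of the long blocks was not above that of the short runs. A block bin lacked a median of 30.6 CG sites per kb and had 46.9 CA and TG dinucleotides per kb beyond expectation, while short runs lacked 31.7 and had an excess of 51.1, and methylated bins lacked 20.2 and had an excess of 23.1. GC dinucleotides, made of the same bases in reverse order, had 1.11 in block bins, 1.05 in methylated and 1.09 in unmethylated bins, so the shortage was one of CG and not of C next to G in either order. CAG and CTG trinucleotides, the main CHG sites, were also frequent, at 1.70 times expectation in block bins and 1.65 in short CG-only runs. Partial CG bins had 1.54, methylated bins 1.17 and unmethylated bins 1.49. The low CHG level of the blocks was thus measured over many sites.

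**Figure D1:**
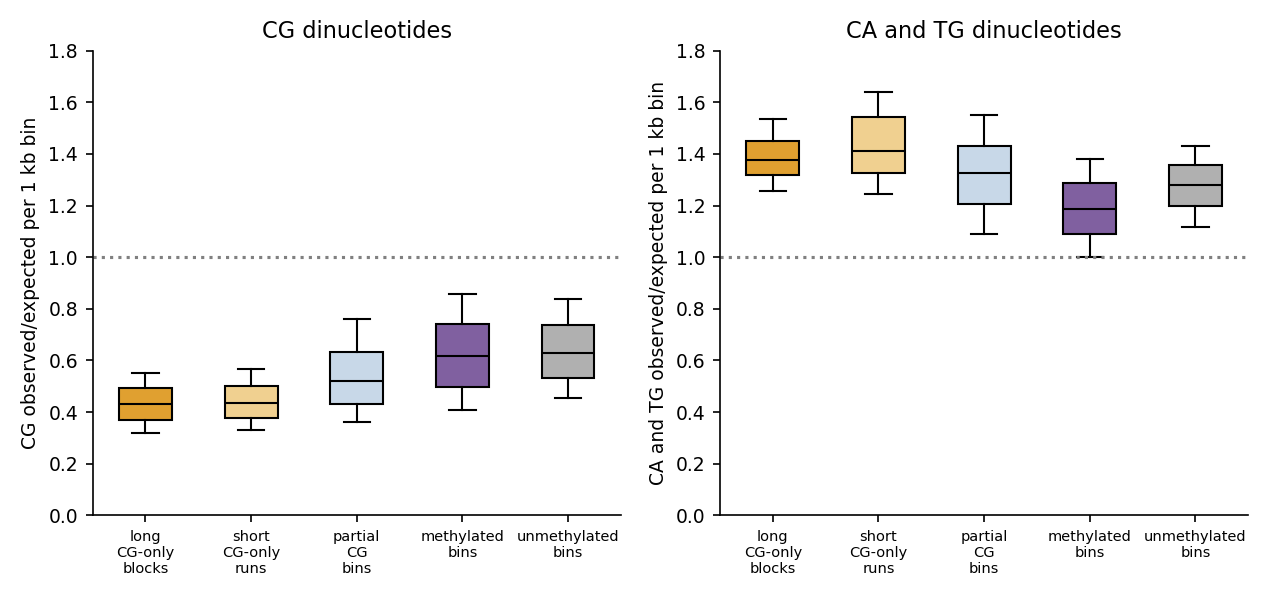
Observed/expected ratio of CG (left) and of CA and TG dinucleotides (right) in 1 kb bins of long CG-only blocks, short CG-only runs, partial CG bins, methylated bins and unmethylated bins. Boxes span the quartiles with the median as a line, whiskers run from the 10th to the 90th percentile, and the dotted line marks a ratio of 1; block bins have a CG median of 0.431 and lie mostly below the boxes of methylated (0.616) and unmethylated bins (0.629).

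The shortage of CG was also seen between bins of like GC content and within chromosome 6. The blocks had a median GC content of 47.1%, close to the 47.6% of methylated bins and below the 51.3% of unmethylated bins. Among bins of 45% to 50% GC, the CG ratio was 0.436 in block bins and 0.437 in short CG-only runs. Methylated bins had 0.575 and unmethylated bins 0.570. Among bins of 50% to 55% GC it was 0.423, 0.410, 0.636 and 0.622 in the same order, and at 40% to 45% GC 0.423, 0.449, 0.595 and 0.601. On chromosome 6 it was 0.452, 0.429, 0.606 and 0.632. The shortage was thus shared by the short CG-only runs. Mean depth was alike, with a median of 10.5 reads in block bins, 9.54 in methylated and 10.6 in unmethylated bins.

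Across all bins with a CHG level below 10%, the CG ratio fell with the CG methylation level and then levelled off. It was 0.633 in bins with CG below 1%, 0.555 at 10% to 20%, 0.477 at 30% to 40%, 0.428 at 50% to 60%, 0.425 at 60% to 70% and 0.455 at 90% to 100%. Methylated bins, which also carry CHG methylation and average 94.2% in CG, had 0.616. The 244 bins with CG of 90% to 100% and CHG below 10% thus had a lower ratio than methylated bins, 0.455 against 0.616. The bins are 1 genome and 1 tissue, and the order in which methylation and base composition arose cannot be read from them.

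**Figure D2:**
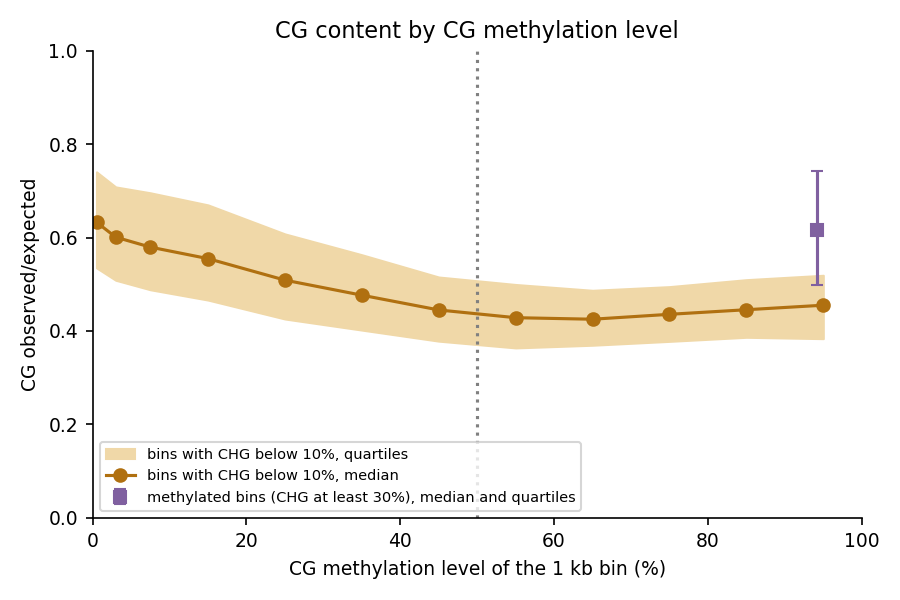
Median CG observed/expected ratio (points, with quartiles shaded) of 1 kb bins with a CHG level below 10%, by the CG methylation level of the bin in percent, and of methylated bins with CHG of at least 30% (square, with quartiles, at their mean CG level of 94.2%). The ratio falls from 0.633 at the lowest CG level to 0.425 at 60% to 70%, and the square at 0.616 lies well above the line; the dotted line is the CG limit of 50%.

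Blocks of different length had the same CG ratio but not the same CG level. The CG level was 65.7% in single CG-only bins, 68.4% in runs of 2, 70.3% in blocks of 3 bins, 72.1% in those of 4 to 5, 75.3% in those of 6 to 8 and 74.98% in those of 9 to 15. The CG ratio was 0.436, 0.432, 0.437, 0.427, 0.431 and 0.427 in the same order. Part of the trend in level is fixed by geometry, since the end bins of a run hold the edges. When each block was divided into 5 equal parts, the first and last part of blocks of 3 bins had 64.5% and 63.1% and the middle part 75.03%, while in blocks of 5 or more bins the outer parts had 72.2% and 72.7% and the middle part 77.1%. The middle part was thus lower in the shorter than in the longer blocks, by less than the outer parts were. The replicate SDs of the 2 middle levels were 1.72 and 1.52 points, and no SD of their difference was computed.

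For the 792 blocks, the rule bounded the CG and CHG levels but not the CG ratio. Their CG level ranged from 53.2% to 91.0%, with a median of 72.2% and quartiles of 66.9% and 76.5%, and their CG ratio ranged from 0.261 to 0.758, with 690 blocks below 0.5 and only 7 above 0.6. The CHG level over a whole block was below 1% in 764 blocks. Across the blocks, the CG level had a Pearson correlation of 0.248 with length, 0.0714 with the CG ratio and −0.0208 with mean depth. The CG levels of replicate 1 and replicate 2 were correlated at 0.771, and they differed by a median of 3.49 points and at most 17.1 points. These are descriptions over 792 regions of the same libraries.

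Most blocks were only a few kilobases long. There were 417 blocks of 3 kb, 181 of 4 kb, 79 of 5 kb and 48 of 6 kb, 194 blocks had at least 5 kb, and 16 had at least 10 kb. The longest, chr2:6439001-6454000, had 15 kb and 456 covered CG sites, with 70.8% in the merged report (71.6% and 70.01% in the replicates). Its 15 bins ran between 55.3% and 88.3%, and unmethylated bins lay directly on both sides, at 0.260% and 0% CG. The CG ratio was 0.410 over the block, 0.502 in the bin before it and 0.839 in the bin after it. The next on the left side was a methylated region, which began 2 kb from the block, with 67.6% CG and 41.4% CHG.

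The other long blocks were similar in level and differed in their neighbours. The block chr2:9033001-9046000 had 77.9% CG over 379 sites (77.9% and 78.7% in the replicates), with bins at 60.7% to 90.4%, and partial CG bins at both ends. On its right, partial CG bins of 44.0% and 38.5% flanked a further CG-only bin of 83.8%, so that CG methylation without CHG went on for 3 kb beyond the block. The block chr1:29000001-29013000 had 80.4% over 335 sites (80.7% and 80.2% in the replicates) and began next to a bin at 0% CG. Its first bin had only 8 covered CG sites, and the replicates were far apart there, at 95% and 60%. The block chr1:20758001-20771000 had 76.0% over 303 sites, with the widest gap between replicates among the 5 longest (70.5% and 79.0%), and lay between an unmethylated bin and a methylated bin of 71.7% CG and 37.2% CHG. The block chr2:10809001-10821000 had 75.4% over 348 sites.

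**Figure D3:**
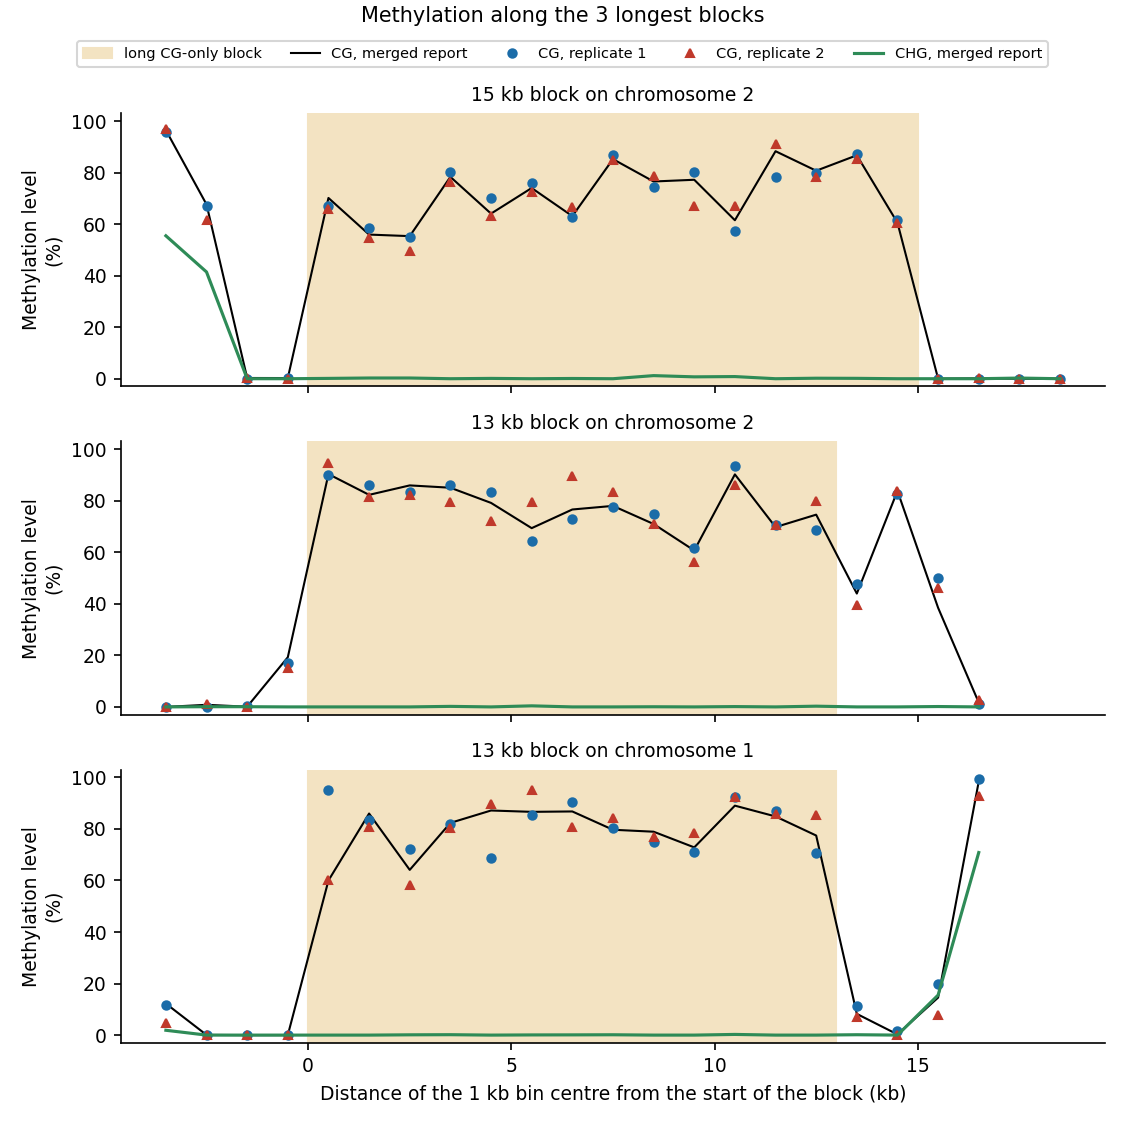
CG methylation level in percent of 1 kb bins in the merged report (black line), replicate 1 (circles) and replicate 2 (triangles), and CHG level in the merged report (green), along the 15 kb block and the 13 kb blocks with 379 and 335 covered CG sites (shaded), by distance from the block start in kb. In the merged report CG is 55.3% or more and CHG 1.20% or less in every shaded bin, and CG drops to near 0 directly outside the 15 kb block.

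The longest blocks of the other chromosomes were chr3:4404001-4416000 (12 kb, 77.5% CG), chr4:12656001-12667000 (11 kb, 69.1%), chr5:10261001-10269000 (8 kb, 81.1%) and chr6:5275001-5282000 (7 kb, 80.6%). The block of chromosome 5 was richer in GC than most, at 55.2%, and had a CG ratio of 0.508. The block of chromosome 6 had a CHG level of 0.733% in replicate 1 and 2.74% in replicate 2, so its CHG level is poorly determined. The highest CG level was that of chr5:3586001-3590000, at 91.0% over 99 sites (88.7% and 90.4% in the replicates). The lowest was that of chr5:7048001-7051000, at 53.2% over 64 sites, where the replicates gave 51.9% and 64.1%.

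The extremes of the CG ratio and of CHH were less typical blocks. The lowest CG ratio, 0.261, belonged to chr1:21467001-21470000, which had a CA and TG ratio of 1.65 and a CG level of 62.9%. The highest, 0.758, belonged to chr3:17867001-17870000, the block with the lowest depth (5.36 reads per cytosine) and the highest CHG level (5.12%, with 7.45% and 2.13% in the replicates). Both bins next to it had CG of at least 50% with CHG of 21.8% and 17.1%, so this block lay inside CHG-methylated sequence and near the CHG limit. The highest CHH level, 1.24%, was that of chr1:23078001-23081000, with 1.65% in replicate 1 and 0.293% in replicate 2.

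Blocks were found along all 6 chromosomes. They took 3.21% of the scored bins of chromosome 1, 3.03% of chromosome 2, 2.71% of chromosome 3, 2.69% of chromosome 4, 3.41% of chromosome 5 and 1.46% of chromosome 6. Per Mb there were 2.89 blocks on chromosome 6 and 6.73 on chromosomes 1 to 5 together. Chromosome 6 was methylated in 82.4% of its scored bins, against 33.6% on chromosomes 1 to 5. Of the CG-only bins of chromosome 6, 47.2% belonged to blocks, against 44.4% on chromosomes 1 to 5. With each replicate alone, the share was 1.43% and 1.49% on chromosome 6 and 2.84% and 3.13% on chromosomes 1 to 5.

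Within chromosomes 1 to 5 the share in blocks was similar from the ends to the middle but varied between windows of 1 Mb. With each chromosome divided into 10 equal zones and zones at the same distance from either end pooled, they took 2.81%, 2.95%, 2.64%, 3.41% and 3.25% of the scored bins from the ends to the middle. None of the 110 windows of 1 Mb was free of block bins, and the share ranged from 0.328% to 7.14%, the highest in chr1:5000001-6000000, with a median of 2.83%. The gap between neighbouring blocks had a median of 95 kb, with quartiles of 37 and 199.8 kb, and 31 of 786 gaps were 5 kb or shorter. Across the 110 windows, the share in blocks had a Pearson correlation of −0.146 with the share of methylated bins, as a description.

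Blocks seldom touched methylated bins. Of their 1584 edges, 917 (57.9%) met a partial CG bin (CG of 5% to 50%, CHG below 10%), 554 (35.0%) met an unmethylated bin, 51 (3.22%) met a methylated bin, and 36 met a bin of weak CHG (CG of at least 50%, CHG of 10% to 30%). Partial CG bins were 11% of all scored bins, unmethylated bins 39.8%, methylated bins 37.7%, bins of weak CHG 1.99% and all other kinds 3.03%. The bin next to a block cannot be CG-only by the rule, and a partial CG bin will often hold the last part of the block. In the second bin from the edge, which is free of that limit, 64.6% were unmethylated, 12.0% partial CG, 11.3% methylated and 4.13% CG-only. In the third bin 50.2% were unmethylated and 26.5% methylated, and in the tenth 40.8% and 30.4%. The share of unmethylated bins was thus above that of all scored bins in the second and the third bin from the edge, below it in the first, and close to it in the tenth.

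Seen per block, 300 lay between a partial CG and an unmethylated bin, 279 between partial CG bins and 108 between unmethylated bins, while 1 had methylated bins on both sides. An unmethylated bin was adjacent to 446 of the 792 blocks. Counted in bins from the block, with 1 for the adjacent bin, the nearest unmethylated bin was at a median of 1 (quartiles 1 and 2). The nearest methylated bin was at a median of 4 (quartiles 3 and 7, at most 34). These distances were not compared with those of other bins.

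Where the block met an unmethylated bin, a drop in CG across the edge was set by the rule and by the class of the neighbour. The same holds for partial CG bins, so the size of the drop is given as a description. In windows of 100 bp, the CG level at these 554 edges was 5.18% in the first window outside and 28.9% in the first window inside, a step of −23.7 points (−21.5 ± 0.750 in the replicates, SD, n = 2), and 950 bp outside it was 0.260%. At the 917 edges with partial CG bins, the levels were 57.4% outside and 65.2% inside. Over all edges together the step was −14.0 points (−12.6 ± 1.05, SD, n = 2). At the 87 edges with methylated bins or bins of weak CHG, the CG level was 64.97% in the first window outside and 72.3% in the first inside, a step of −7.35 points (−3.68 ± 1.40, SD, n = 2), and farther out it was higher, at 87.6% at 1050 bp outside. The CHG level, for which these neighbours were selected, was 8.44% in the first window outside and 48.9% at 1050 bp outside.

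**Figure D4:**
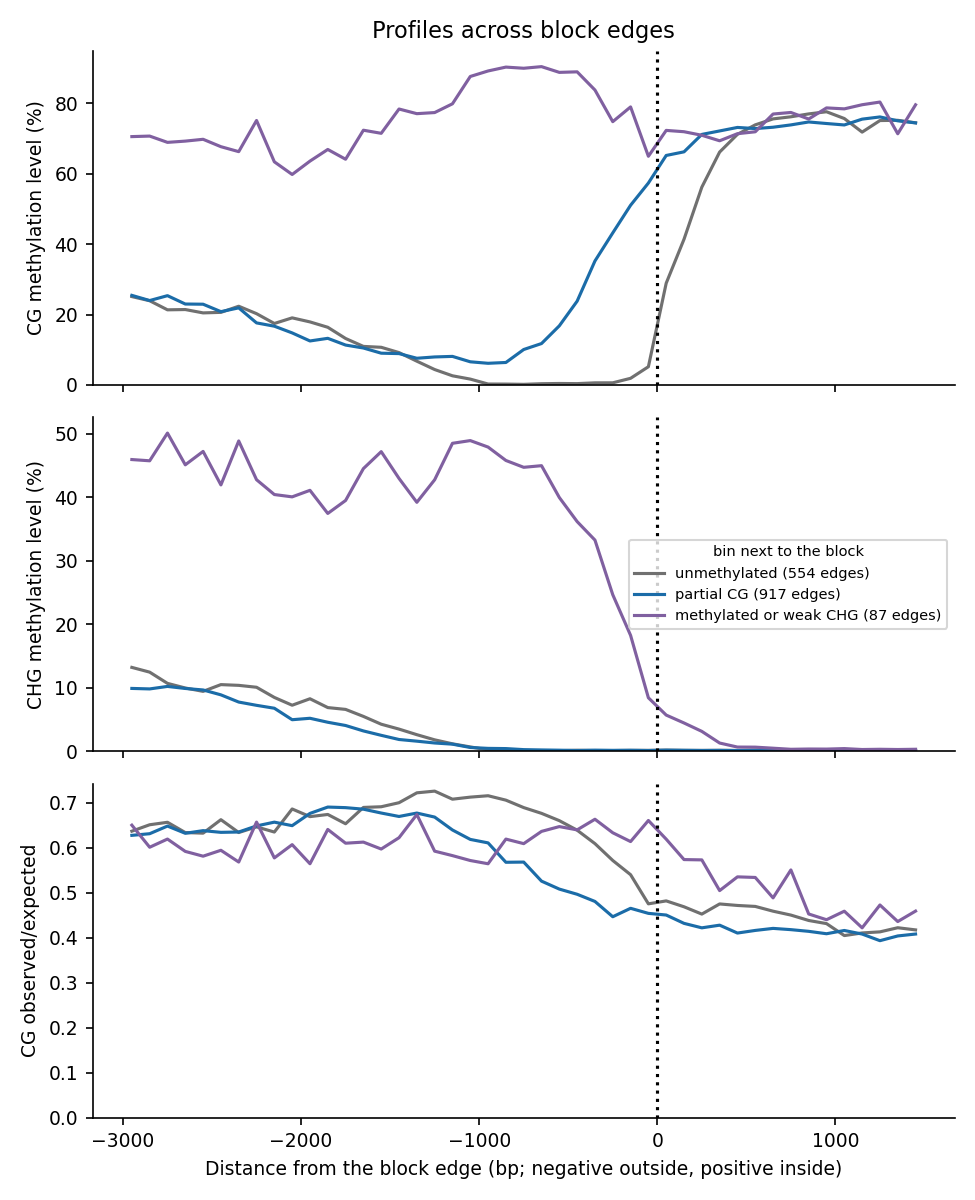
CG level (top), CHG level (middle) and CG observed/expected ratio (bottom) in 100 bp windows by distance in bp from the bin edge of a block, negative outside and positive inside, for edges next to unmethylated bins (554), partial CG bins (917) and bins methylated in CHG or with weak CHG (87). CG falls to 0.260% at 950 bp outside where the neighbour is unmethylated, and CHG reaches 48.9% at 1050 bp outside where the neighbour carries CHG. The neighbours were classed by their CG and CHG levels.

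To place the end of methylation more finely than the bin grid, in a measure chosen after the bin values had been seen, pairs of CG sites were followed outward from 1 kb inside each edge until 5 covered pairs in a row had levels below 20%. Such an end was found for 1284 of 1471 edges with unmethylated or partial CG neighbours. The gap between the last pair before the end and the first of the low pairs, which is the spacing of covered pairs there and sets how finely an end can be placed, had a median of 188 bp, with quartiles of 47 and 474 bp. The ends lay a median of 153 bp inside the bin edge next to unmethylated bins and 333 bp outside it next to partial CG bins. CHG was low on both sides by the choice of blocks and neighbours, and the drop in CG at the end is set by its definition, so neither is a result.

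The shortage of CG reached beyond the end of CG methylation. Around the 1284 ends, the CG ratio was 0.404 at 1550 bp inside, 0.443 at 450 bp inside and 0.513 in the last window. On the outer side, CG methylation was 12.5% in the first window, 6.68% at 250 bp and 2.88% at 450 bp, against 0.390% in unmethylated bins. The ratio there was 0.460 in the first window, 0.487 at 150 bp, 0.594 at 450 bp and 0.691 at 950 bp, and it stayed near 0.70 to 1550 bp. Bins with CHG below 10% had a median ratio of 0.580 at 5% to 10% CG and 0.601 at 1% to 5% CG. The ratio of 0.594 at 450 bp outside was thus close to that of bins with a like CG level. The CA and TG ratio was 1.41 at 1550 bp inside, 1.36 in the first window outside and 1.22 at 950 bp outside. The first window outside often lies in the gap between a high and a low pair and holds few CG sites by construction. The last window inside had the highest ratio of those inside, and how the placing of the ends shapes it was not tested. The ratios from 250 bp outward are the safer ones, with 0.545 at 250 bp outside. The upper quartile of the gap was 474 bp, so they are not free of this effect.

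**Figure D5:**
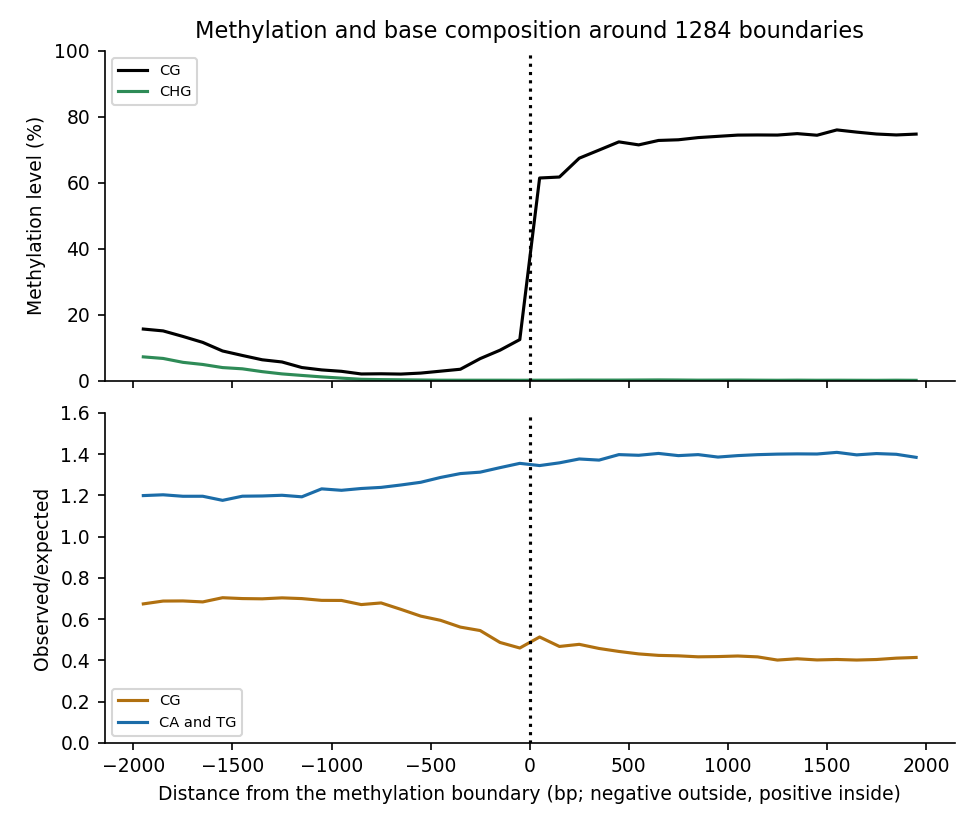
CG and CHG methylation level in percent (top) and observed/expected ratio of CG and of CA and TG dinucleotides (bottom) in 100 bp windows by distance in bp from 1284 ends of CG methylation, negative outside and positive inside. The drop in CG level at 0 follows from how the ends were defined, and the CG ratio is 0.443 at 450 bp inside, 0.594 at 450 bp outside and 0.691 at 950 bp outside.

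Whether the blocks lie in genes or TEs was not settled, because only parts of the annotation were used here. Of 2000 genes of the chromatin cluster P1 and 1996 TEs of the cluster T1 in these parts, 0 touched a block, and no test was made on these incomplete lists. Blocks held 2.89% of all scored bins. The paper describes cluster P1 as poor in cytosine methylation of every context, and genes and TEs of the other clusters were not looked at. The 0 therefore does not show whether blocks avoid genes or TEs.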

How the data were processed

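EM-seq reads of 2 biological replicates of thalli were processed by the authors. Reads were trimmed with Trim Galore, mapped to the Oxford assembly with Bismark and its Bowtie2 option and deduplicated, and SAMtools 1.9 and bedtools 2.27.1 were used to merge and convert the reads of both replicates. The 3 deposited reports (merged, replicate 1 and replicate 2) hold, per cytosine, raw counts of reads called methylated and of reads called unmethylated, not normalized. Cytosines with 10 or more reads in the merged report gave the main values, and replicate means and SD from cytosines with at least 5 reads in the same regions. Counts cover reads, and intervals of single sites were not computed.

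Levels of regions are means over cytosines. Bases were rebuilt from the trinucleotide column, with letters other than C and G taken as A or T. Observed/expected CG was the CG count times the length, divided by the product of the C and G counts. Blocks, comparison bins and lists were chosen with earlier results of these data known. The blocks named were the 5 longest, the longest of each chromosome and those with extreme CG level, CG ratio or CHH level. No column of other samples was used, and the incomplete gene and TE lists were given no overlap test. The alternatives tried were other coverage limits, each replicate alone, the sum of both, pooled reads, other bin sizes and positions, and other limits of the rule. Python 3.11.15, NumPy 2.4.6, pandas 2.3.3 and Matplotlib 3.10.9 were used, and the procedure was tested on simulated reads.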

Additional observations from a re-analysis of the deposited data

Results flagged for a closer look

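The comparisons above use chromosomes 1 to 6. On 457 unplaced scaffolds, which no comparison uses, 961 bins were scored, 26 were CG-only, and they formed 3 runs of 3 or more bins. They drew attention because runs of the same kind appear in sequence that the report leaves out. For scale, 6.48% of the scored bins of chromosomes 1 to 6 were CG-only, and 2.89% lay in blocks. The series has no control library without methylation.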

How the results depend on the processing

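Of the 16 results, only the CHH difference, both differences in CG ratio and the edge step could change sign, and under the 15 alternatives none of them did. For the edge step this says little, because most neighbours were classed by a lower CG level. The CG ratio of block bins lay below that of methylated bins in 16 of 16 settings. Values that moved by more than the replicate SD, or counts by more than 1.5 times, are given by setting, as number of blocks, length or level.

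With at least 20 reads per site only 9936 bins were scored, which left 3 blocks, 9 kb in all and 3 kb at most, with 0.302% CHG, 0.212% CHH (0.117 points above unmethylated bins), a CG ratio of 0.467 (−0.183 and −0.205 from methylated and unmethylated bins), 16.7% of edges at unmethylated and 0% at methylated bins, 60.3% of CG sites at 80% or more, 0% of chromosome 6 and 0.105% of chromosomes 1 to 5 in blocks, and an edge step of −6.18 points. Bins of 500 bp gave 514 blocks and 2106.5 kb, with 76.0% CG, a CG ratio of 0.434 (−0.171 and −0.193), 29.2% and 1.85% of edges at unmethylated and methylated bins, 69.3% of sites at 80% or more, 1.14% and 2.04% of chromosome 6 and chromosomes 1 to 5, and a step of −24.4 points. A CG limit of 70% gave 264 blocks and 1024 kb, with 80.9% CG, 0.235% CHG, a CHH difference of 0.0284 points, a CG ratio of 0.430 (−0.187 and −0.199), 13.3% and 2.65% of edges, 75.3% of sites, and 0.682% and 0.936% of chromosome 6 and chromosomes 1 to 5. Runs of at least 5 bins gave 194 blocks and 1255 kb, with 75.1% CG, a CHH difference of 0.0260 points, a CG ratio of 0.428 (−0.189 and −0.201), 30.2% and 2.84% of edges, 68.8% of sites, 0.520% and 1.18% of the chromosomes, and a step of −11.9 points.

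CHG limits of 5% and 20% gave 0.172% and 0.398% CHG, CG ratios of 0.431 and 0.433 (−0.185 and −0.184 from methylated, −0.198 and −0.196 from unmethylated bins), 2.62% and 4.47% of edges at methylated bins, and 1.36% and 1.68% of chromosome 6, and the 20% limit a CHH difference of 0.0273 points. At least 5 reads per site gave a CG ratio of 0.430 (−0.190 and −0.198), 3.51% of edges at methylated bins and a step of −11.9 points. Pooled reads gave a CG ratio of 0.431. Shifted bins gave 0.236% CHG and a CG ratio of 0.432 (−0.196 from unmethylated bins). At least 10 sites per bin gave a CG ratio −0.186 from methylated bins and 2.70% of edges at methylated bins.

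With each replicate alone, the number of blocks was 752 to 823, CHG 0.194% to 0.245%, CHH 0.108% to 0.131%, the CHH difference 0.0156 to 0.0277 points, the CG ratio 0.431 in both (−0.186 and −0.198 from methylated and unmethylated bins), edges at unmethylated bins 35.4% to 37.5% and at methylated bins 2.92% to 3.26%, and sites at 80% or more 65.7% to 68.4%. The CG level of 14 named blocks was recomputed 96 times, and 31 values moved by more than the replicate SD, none below 51.9%. The cause of these shifts was not tested. A median depth of 9 reads limits what single sites can show. No paired analysis was possible because all samples belong to 1 group.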
